A study of Mus musculus with 11 samples.

Results

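The genes described here are 10 receptors for antibodies and their relatives in mouse kidney, picked by symbol from the 25677 genes in the count table: Fcgr1, Fcgr2b, Fcgr3, Fcgr4, Fcer1g, Fcgrt, Fcrl1, Fcrl5, Fcer2a and Pigr. RNA was sequenced from kidneys of 11 female mice, each aged 21 weeks and each giving 1 library. The 3 mice of the control group (Ctr) were C57BL/6J. The 4 mice of the model group (Lpr) were MRL/lpr, an inbred strain with the lpr mutation of the death receptor gene Fas that develops a lupus-like disease with kidney inflammation. The 4 mice of the treated group (DNase) were MRL/lpr and received DNase I, an enzyme that digests DNA outside cells, by injection into the abdomen every day from week 17. Both MRL/lpr groups therefore carried the lpr mutation and the MRL background, and Ctr carried neither. A difference from Ctr holds strain and disease together, and these cannot be told apart here. Whether Lpr and Ctr received a vehicle is not given in the sources used here, and without one injection and enzyme cannot be told apart either.

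Fc receptors bind the constant part of antibodies and connect immune complexes to the cells that respond to them. In the mouse, the Fcγ receptors FcγRI (Fcgr1), FcγRIII (Fcgr3) and FcγRIV (Fcgr4) activate myeloid cells through the signalling chain encoded by Fcer1g, while FcγRIIB (Fcgr2b) carries an inhibitory motif and restrains the same cells and B cells. Fcrl1 and Fcrl5 encode Fc receptor-like proteins of B lineage cells, and Fcer2a encodes the low-affinity IgE receptor CD23. Fcgrt encodes the neonatal Fc receptor, which pairs with beta 2-microglobulin to recycle IgG and albumin in endothelium, podocytes and tubule cells, and Pigr encodes the receptor that carries polymeric IgA and IgM across epithelium. Deposits of immune complexes in the glomerulus are the hallmark of lupus nephritis, and the Fcγ receptors are known as a link between such deposits and leukocytes.

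Fcgr2b, Fcgr4 and Fcgr3 lie side by side within 106.3 kb of chromosome 1 in the GENCODE annotation of the mouse genome GRCm38, at positions 170958617 to 171064935, and Fcer1g starts 164.6 kb further along the same chromosome. Fcrl1 and Fcrl5 share a region of 124.3 kb on chromosome 3, from position 87376387 to 87500678. The submitters' processing notes name mm10, which is the same build. The following sequences are the 120 bases before the RefSeq transcription start of Fcgr1, Fcgr4 and Pigr, which had the largest fold changes between Lpr and Ctr among the genes with measurable counts in Ctr, and of Fcer1g, on whose product the activating receptors depend. They were read from GRCm38.p6 5′ to 3′ on the strand of the gene, with matches to the searched motifs in capitals.
Fcgr1: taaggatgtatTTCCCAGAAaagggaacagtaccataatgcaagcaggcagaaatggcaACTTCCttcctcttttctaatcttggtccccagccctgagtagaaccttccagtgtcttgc
Fcgr4: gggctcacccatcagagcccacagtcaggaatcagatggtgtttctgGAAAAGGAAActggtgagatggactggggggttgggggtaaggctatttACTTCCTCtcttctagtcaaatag
Fcer1g: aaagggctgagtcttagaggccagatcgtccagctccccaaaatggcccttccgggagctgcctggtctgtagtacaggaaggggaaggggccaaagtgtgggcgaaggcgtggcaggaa
Pigr: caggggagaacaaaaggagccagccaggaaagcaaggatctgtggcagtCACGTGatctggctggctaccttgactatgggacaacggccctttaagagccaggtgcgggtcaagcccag
The window of Fcgr1 is chr3:96293970-96294089 on the minus strand, that of Fcgr4 is chr1:171018806-171018925 on the plus strand, that of Fcer1g is chr1:171234350-171234469 on the minus strand and that of Pigr is chr1:130826564-130826683 on the plus strand. The motifs were searched on both strands in 300-base windows around each start site. The ETS core GGAAGT, the letters that PU.1 and related factors of blood cells recognise, was in 6 of the 10 windows and in 23.8% of all 32851 promoter windows. The longer form GAGGAAGT, which contains the ETS core, was found for Fcgr4 and Fcrl1 and in 3.2% of all windows. TTCNNNGAA, the form that STAT factors bind, was found 109 bases before the start of Fcgr1 and downstream of the start of Pigr, outside the bases shown, and in 8.3% of all windows. GAAA, any 2 bases and GAAA again, the form of interferon-response elements, was found for Fcgr4 and in 3.44% of all windows. CACGTG, an E-box, was found for Pigr and in 7.15% of all windows. The window of Fcer1g held none of these letters. A match describes the sequence and does not show that a factor binds there. The reference is the C57BL/6J genome, and the sequence of the MRL strain was not examined.

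Libraries held between 33469858 and 38460873 counted reads. Values are given in CPM, which are counts scaled to library size after TMM normalization, or in FPKM where genes are compared with each other, because only FPKM is divided by gene length. Lpr 3 stood apart from the other kidneys, since its counts fell with gene length. The slope on log2 gene length was -0.414 log2 units in this kidney, against slopes of -0.039 to 0.088 in the other 10. Groups were compared in pairs by edgeR's quasi-likelihood test fitted over all genes, and a gene passed at a Benjamini-Hochberg adjusted p under 0.05. Intervals of log2 fold changes are approximate 95% intervals. Of the 10 genes, 9 had enough counts to be tested in each comparison and Fcer2a had not. Kidney is a bulk tissue, so fewer cells of a type and less RNA per cell cannot be told apart.

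In Ctr, the ranking of the genes by FPKM was led by Fcgrt, the IgG-recycling receptor, with a median of 111.3 FPKM, followed by Fcgr2b with 22.9, Pigr with 16.1 and Fcer1g with 9.32. The activating receptors were lower, with medians of 2.13 for Fcgr4, 1.84 for Fcgr3 and 0.456 FPKM for Fcgr1. Fcer2a, Fcrl1 and Fcrl5 had at most 0.107 FPKM in every Ctr kidney. The ranges of Pigr and Fcer1g overlapped, as did those of Fcgr4 and Fcgr3 and those of Fcer2a and Fcrl1, and the other neighbours in this order did not overlap. In Lpr, Pigr had the highest median with 257.6 FPKM, but its range of 40.1 to 309.1 overlapped that of Fcgrt, whose median was 178.4. Fcer1g, at 53.2 FPKM, then had a higher median than Fcgr2b at 34.1, Fcgr4 at 18.2, Fcgr3 at 11.0 and Fcgr1 at 6.38, and neighbours among these 5 overlapped. In DNase, the order was the same from Pigr, with a median of 270.7 FPKM, down to Fcer2a. The ranges did not overlap between Fcgrt and Fcer1g, between Fcer1g and Fcgr2b, between Fcgr4 and Fcgr3 or between Fcrl1 and Fcer2a.

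**Figure D1:**
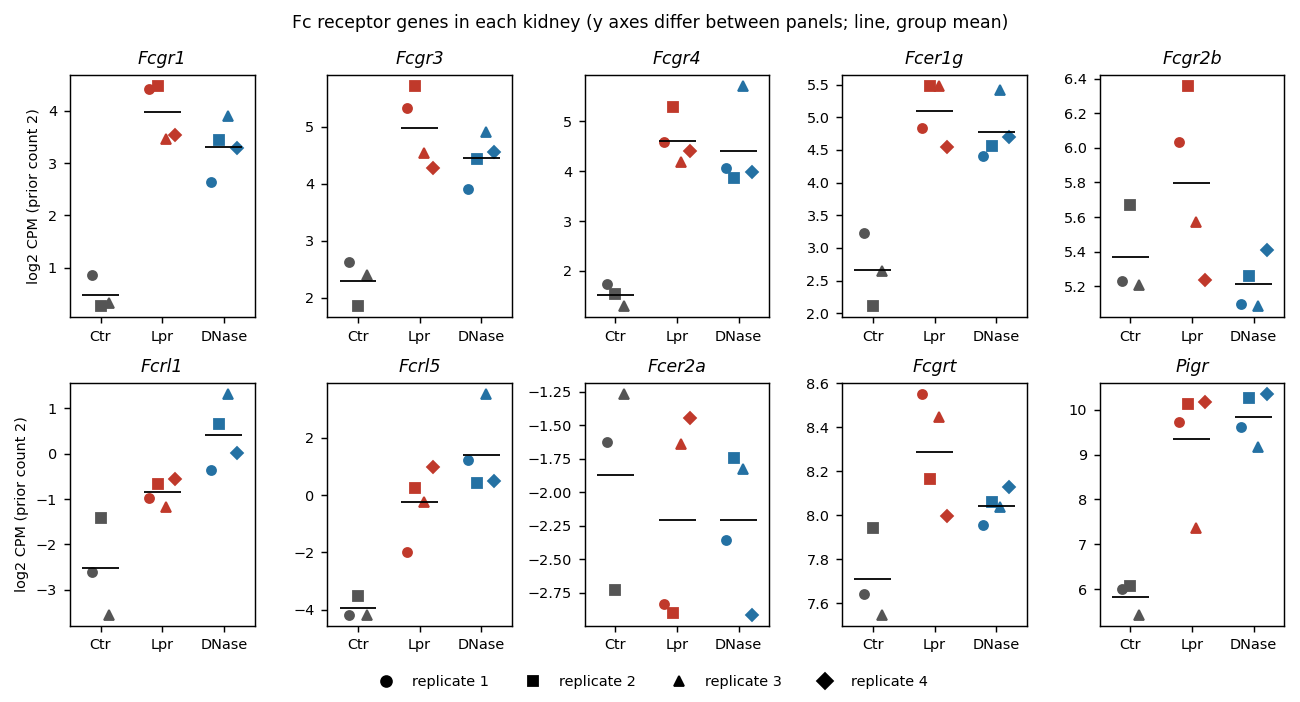
Level of each Fc receptor gene in each kidney, as log2 CPM with a prior count of 2, with the mean of each group as a line and the replicate number as the shape of the point. Fcgr2b and Fcer2a overlap between Ctr and both MRL/lpr groups, and Lpr and DNase overlap for every gene but Fcrl1. DNase 3 is the highest DNase kidney for Fcgr4 and Fcrl5, and also for Fcgr1, Fcgr3, Fcer1g and Fcrl1.

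The first comparison set kidneys of the lupus model against those of healthy controls. The activating Fcγ receptors, their signalling chain and the transport receptor for IgA rose several-fold in Lpr, while the inhibitory Fcgr2b did not pass the test. Of the 9 genes tested, 6 passed, all higher in Lpr (Fcgr1, Fcgr3, Fcgr4, Fcer1g, Fcrl5 and Pigr), where 10.2% of all 16074 genes tested passed in either direction and 7.27% passed as higher. The same 6 genes also had an absolute log2 fold change above 2, the rule of the study's methods, which 5.78% of all genes met. The median log2 fold change over the 9 genes was 2.78 against 0.027 over all genes, and it stays at that value with Fcrl5 at the lower end of its counting interval. All 4 Lpr kidneys were above all 3 Ctr kidneys in CPM for 8 of the 10 genes, each of them tested, and for 14.2% of all genes tested. Fcrl1 and Fcrl5, at 10 counts or fewer in every Ctr kidney, reached the filter on low counts only through the Lpr kidneys. Their direction was thus largely set by the filter, and they add no support to the counts above. Without Lpr 3, 5 genes passed, since Fcrl5 then fell below the filter on low counts, while the share of all genes that passed was 17.8% in place of 10.2%.

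Fcgr1, the high-affinity receptor for IgG, had 1.75, 1.15 and 1.20 CPM in Ctr and 21.4, 22.3, 11.0 and 11.5 CPM in Lpr. Every Lpr kidney stood far above every Ctr kidney, and Lpr 1 and 2 were the highest. Its level was 12.2-fold higher in Lpr, a log2 fold change of 3.60 (SE 0.375, edgeR adjusted p = 0.000765). Fcgr3, a low-affinity activating receptor of macrophages, neutrophils and NK cells, had 6.09, 3.57 and 5.24 CPM in Ctr and 40.1, 52.6, 23.3 and 19.4 CPM in Lpr. The same Lpr kidneys, 1 and 2, were highest for this gene. The log2 fold change of Fcgr3 was 2.78 (SE 0.403, edgeR adjusted p = 0.00334), which is 6.86-fold. Fcgr4, an activating receptor of monocytes, macrophages and neutrophils that prefers IgG2 complexes, had 3.29, 2.84 and 2.40 CPM in Ctr and 24.1, 38.9, 18.1 and 21.0 CPM in Lpr. It stood 9.05-fold higher, with a log2 fold change of 3.18 (SE 0.318, edgeR adjusted p = 0.000713). Its highest value was in Lpr 2, and the lowest Lpr kidney was still above all Ctr kidneys.

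Fcer1g, whose protein is the shared γ chain that the activating receptors need for surface expression and signalling, had 9.36, 4.27 and 6.23 CPM in Ctr and 28.5, 44.7, 44.6 and 23.4 CPM in Lpr. The groups did not overlap, and Lpr 2 and 3 were the highest. The log2 fold change was 2.43 (SE 0.358, edgeR adjusted p = 0.00358), or 5.37-fold. Fcer1g is a short gene of 658 bases in the lengths behind the FPKM values, and it lay 0.53 log2 units higher in Lpr 3 than in the other Lpr kidneys, while genes of like length lay higher by a median of 1.23. Without this kidney its log2 fold change was 2.29 (edgeR adjusted p = 0.00387).

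Fcgr2b, the inhibitory receptor, had 37.6, 50.8 and 36.9 CPM in Ctr and 65.4, 82.1, 47.5 and 37.6 CPM in Lpr. Lpr 1 and 2 exceeded all Ctr kidneys, and Lpr 3 and 4 lay within the range of Ctr. The log2 fold change of 0.49 had an interval of -0.15 to 1.13 (edgeR adjusted p = 0.374), so that a rise of the size seen for Fcgr3 lies outside it. In Ctr, Fcgr2b made up 81.1% to 88.9% of the summed FPKM of the 4 Fcγ receptor genes, and in Lpr 45.5% to 52.3%. The sum itself lay between 26.9 and 33.5 FPKM in Ctr and between 53.3 and 113 FPKM in Lpr. These shares are a description of the same counts and were not tested.

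The ratio of an activating to the inhibitory receptor in the same kidney does not depend on library size. The FPKM ratio of Fcgr1 to Fcgr2b was 0.0209 ± 0.00748 (SD, n = 3) in Ctr and 0.176 ± 0.0258 (SD, n = 4) in Lpr. For Fcgr3 to Fcgr2b the ratio was 0.0713 ± 0.0276 (SD, n = 3) in Ctr and 0.322 ± 0.0419 (SD, n = 4) in Lpr. For Fcgr4 to Fcgr2b it was 0.0888 ± 0.0209 (SD, n = 3) in Ctr and 0.57 ± 0.114 (SD, n = 4) in Lpr. In each of the 3 ratios the Lpr kidneys lay above the Ctr kidneys without overlap, and the spread within Lpr was small beside the distance to Ctr. Reads can be shared between near-identical stretches of these genes. Of the 100-base stretches of Fcgr3 transcripts, 2.7% also occur in another gene, in each case Fcgr2b, and of those of Fcgr2b 6.49% occur elsewhere, so that a small part of these 2 genes' counts is uncertain. Fcgr1 and Fcgr4 shared 0 such stretches.

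**Figure D2:**
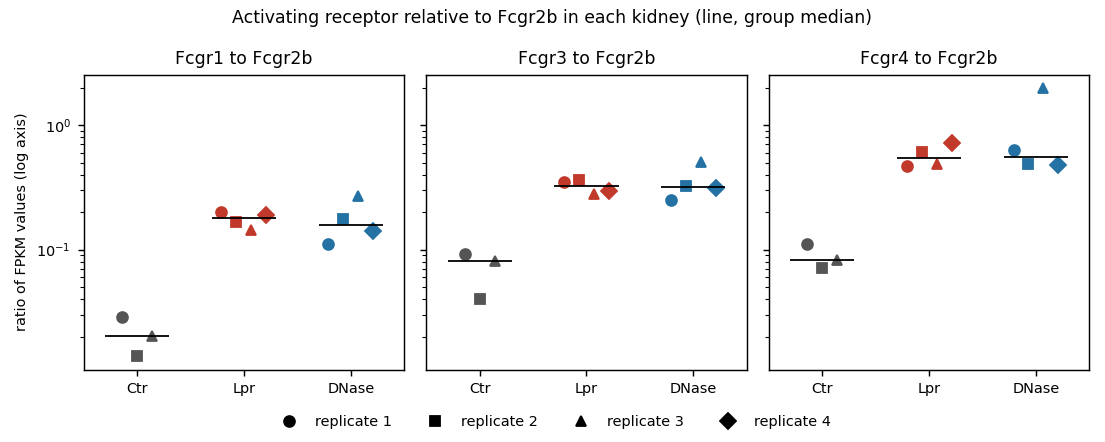
FPKM of each activating receptor gene divided by that of the inhibitory Fcgr2b in the same kidney, on a log axis, with the group median as a line. The Lpr and DNase kidneys lie above the Ctr kidneys for all 3 ratios, and DNase 3 lies at 1.99 for Fcgr4 while the other DNase kidneys lie between 0.477 and 0.628.

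The Fc receptor-like genes were low, and their counts are given in place of CPM. Fcrl5, a receptor-like protein of B cells and plasma cells that can bind IgG, was counted 0, 1 and 0 times in the Ctr kidneys and 7, 43, 27 and 67 times in the Lpr kidneys. The gene was close to absent from Ctr and present in every Lpr kidney, with the fewest counts in Lpr 1. The scaled ratio of 144 counts in Lpr to 1 in Ctr was 106, with a 95% interval of 18.7 to 4220 that covers counting error only (edgeR adjusted p = 0.0105). This adjusted p was 0.0582 without Ctr 1 and 0.0547 without Ctr 3. Fcrl1, a receptor-like protein of B cells, was counted 4, 10 and 1 times in Ctr and 16, 22, 13 and 22 times in Lpr. Its groups did not overlap, but the log2 fold change of 1.75 had an adjusted p of 0.153 (edgeR). Fcer2a, known from follicular B cells, was counted 10, 3 and 12 times in Ctr, 3, 3, 9 and 11 times in Lpr and 5, 9, 9 and 3 times in DNase. All groups overlapped, and a difference was not detectable at this depth.

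Fcgrt and Pigr, the transport receptors, are expressed by kidney cells themselves. Fcgrt had 200.1, 246 and 187 CPM in Ctr and 375, 287, 349 and 255 CPM in Lpr. The lowest Lpr kidney was just above the highest Ctr kidney, and the log2 fold change was 0.60, with an interval of 0.15 to 1.04 (edgeR adjusted p = 0.102). Its partner B2m, the light chain that Fcgrt shares with MHC class I, rose from 380.2 ± 5.61 CPM (SD, n = 3) to 3007 ± 528 CPM (SD, n = 4), a log2 fold change of 3.00 (SE 0.219, edgeR adjusted p = 0.000293). Pigr had 63.7, 67.3 and 43.0 CPM in Ctr and 843, 1114, 164 and 1150 CPM in Lpr. Lpr 3 was the lowest Lpr kidney by far, and it too was above all Ctr kidneys. Pigr was 14.2-fold higher in Lpr, with a log2 fold change of 3.83 (SE 0.635, edgeR adjusted p = 0.0061), and without Lpr 3 the log2 fold change was 4.17 (edgeR adjusted p = 0.000118). Pigr lay 2.64 log2 units lower in Lpr 3 than in the other Lpr kidneys, while genes of like length lay lower by a median of 0.22. Jchain, which joins the polymeric antibodies that Pigr carries, rose as well, from 15.3 ± 8.80 CPM (SD, n = 3) to 529 ± 259 CPM (SD, n = 4), a log2 fold change of 5.12 (edgeR adjusted p = 0.00238). Of 15 symbols listed for antibody chains and other ligands of these receptors, 4 were matched in the table, and the antibody constant region genes were not analysed here.

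The second comparison asked whether DNase I treatment moved these genes in MRL/lpr kidneys. None of the 9 tested genes passed, and 0% of all 15832 genes tested did, with a smallest adjusted p of 0.82. At an unadjusted p under 0.05, 3 of the 9 differed (Fcgr2b lower, Fcrl1 and Fcrl5 higher in DNase), beside 886 genes or 5.6% of all tested. DESeq2 called 19 genes, of which 0 were Fc receptors. The median log2 fold change over the 9 genes was -0.27 against -0.02 over all genes.

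**Figure D3:**
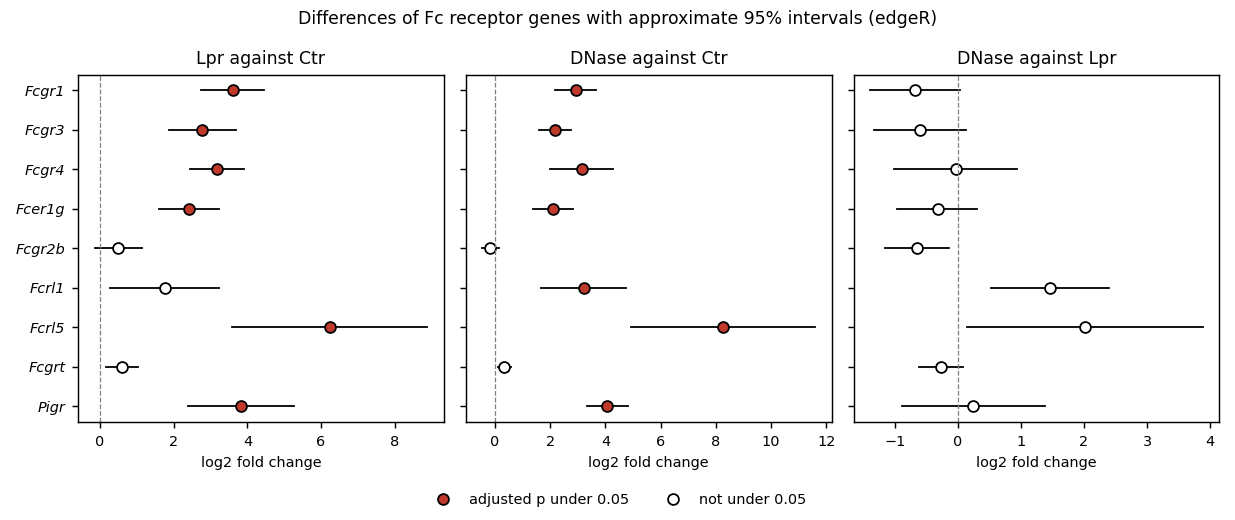
Log2 fold change of the 9 tested genes in the 3 comparisons, with approximate 95% intervals from edgeR and filled points for an adjusted p under 0.05. Against Ctr, 6 genes passed in Lpr and 7 in DNase, none passed between DNase and Lpr, and the fitted values of Fcrl5 against Ctr rest on 1 count in Ctr.

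Fcgr1 had 6.14, 10.8, 14.8 and 9.68 CPM in DNase. These values overlapped the lower Lpr kidneys, and Lpr 1 and 2 were above all of them. The log2 fold change was -0.68, with an interval of -1.39 to 0.04 (edgeR adjusted p = 0.854). Fcgr3 had 14.9, 21.5, 29.9 and 23.3 CPM in DNase, all within or under the range of Lpr, and its log2 fold change of -0.60 had an interval of -1.33 to 0.13. Fcer1g had 21.3, 23.4, 42.8 and 25.9 CPM in DNase, with a log2 fold change of -0.32 and an interval of -0.96 to 0.31. A full return to the level of Ctr would need falls as large as the rises seen between Lpr and Ctr, and falls of that size lie outside these 3 intervals. Beside these values, the summed CPM of 6 monocyte markers lay between 71.9 and 98.3 in DNase and between 99.2 and 214 in Lpr. The groups nearly touched, at 98.3 and 99.2 CPM. The value of 214 CPM was that of Lpr 3, and the other Lpr kidneys had 138 CPM or less. All 6 had a negative log2 fold change, with a median of -0.33, and 0 passed. Ccr2, Plac8 and Ms4a4c had an unadjusted p under 0.05 in edgeR, as did 5.6% of all genes tested. Plac8 alone had 73.35 ± 41.6 CPM (SD, n = 4) in Lpr and 36.26 ± 4.41 CPM (SD, n = 4) in DNase. The sums of macrophage markers overlapped, at 955 to 1770 CPM in DNase and 1210 to 2350 CPM in Lpr. Those of neutrophil markers overlapped too, at 15.2 to 27.9 CPM in DNase and 16.6 to 46.8 CPM in Lpr. The part of monocytes, macrophages and neutrophils in the values of Fcgr1, Fcgr3 and Fcer1g was not tested.

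Fcgr4 had 16.8, 14.5, 52.7 and 15.8 CPM in DNase. DNase 3 exceeded every other kidney of the study, and the other DNase kidneys lay under all 4 Lpr kidneys. With all kidneys the log2 fold change was -0.04, with an interval of -1.01 to 0.94 (edgeR adjusted p = 0.987). Without DNase 3 it was -0.70 (edgeR adjusted p = 0.903), so that the value rests on this kidney. Fcgr1, Fcgr3 and Fcer1g were also highest in DNase 3 among the DNase kidneys. The ratio of Fcgr4 to Fcgr2b was 1.99 in DNase 3 and between 0.477 and 0.628 in the other DNase kidneys.

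Fcgr2b had 34.1, 38.2, 33.9 and 42.4 CPM in DNase, close together and overlapping Ctr. Lpr 1, 2 and 3 lay above all DNase kidneys and Lpr 4 lay among them. The log2 fold change was -0.65, with an interval of -1.16 to -0.14 and an unadjusted p of 0.0184 (edgeR adjusted p = 0.82). The activating to inhibitory ratios overlapped between DNase and Lpr. That of Fcgr1 was 0.174 ± 0.0685 (SD, n = 4) in DNase, and that of Fcgr3 was 0.347 ± 0.109 (SD, n = 4). Fcgr2b took 26.6% of the summed Fcγ receptor FPKM in DNase 3 and 50.3% to 51.8% in the other DNase kidneys.

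Fcrl1 was counted 26, 56, 96 and 37 times in the DNase kidneys. On the CPM scale every DNase kidney was above every Lpr kidney, and this was the case for 1 of the 10 genes and for 2.08% of all genes tested. The log2 fold change was 1.46, with an interval of 0.52 to 2.39 and an unadjusted p of 0.00628 (edgeR adjusted p = 0.82, DESeq2 adjusted p = 0.162). Fcrl5 was counted 81, 47, 452 and 52 times in DNase, with DNase 3 far above all other kidneys. Its log2 fold change of 2.01 (edgeR adjusted p = 0.854) was 0.69 without DNase 3. That of Fcrl1 without this kidney was 1.06 (edgeR adjusted p = 0.903). B cell markers moved in the same direction: all 10 listed markers had a positive log2 fold change, with a median of 0.90, and 0 of them passed in edgeR while 2 did in DESeq2. Their summed level was highest in DNase 3, at 53.7 CPM. The part of B cell number in the values of Fcrl1 and Fcrl5 was not tested.

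Fcgrt had 248, 267, 263 and 280 CPM in DNase, a narrow band over the lower end of Lpr. Its log2 fold change against Lpr was -0.27, with an interval of -0.61 to 0.08 (edgeR adjusted p = 0.854). B2m had between 1824 and 2101 CPM in DNase and between 2227 and 3395 CPM in Lpr, without overlap, and a log2 fold change of -0.63 (edgeR adjusted p = 0.82, DESeq2 adjusted p = 0.0853). Pigr had 785, 1222, 572 and 1299 CPM in DNase, which overlapped Lpr. Its log2 fold change of 0.25 had an interval of -0.89 to 1.38 (edgeR adjusted p = 0.917), and without Lpr 3 the value was -0.10. Jchain had a log2 fold change of 0.34 (edgeR adjusted p = 0.893).

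The third comparison set treated MRL/lpr kidneys against Ctr, and it shares the Ctr kidneys with the first and the DNase kidneys with the second. Of the 9 genes, 7 passed, all higher in DNase (the 6 of the first comparison and Fcrl1), where 21.7% of all 16100 genes passed in either direction and 13.1% passed as higher. The same 7 had an absolute log2 fold change above 2, which 6.01% of all genes met, and without DNase 3 the count past the adjusted p was again 7, beside 18.9% of all genes. All 4 DNase kidneys were above all 3 Ctr kidneys in CPM for 8 of the 10 genes, each of them tested, and for 18.2% of all genes tested. As in the first comparison, Fcrl1 and Fcrl5 reached the filter on low counts only through the MRL/lpr kidneys, here those of DNase. They are among the genes counted here, and with their direction largely set by the filter they add no support to these counts. The median log2 fold change over the 9 genes was 2.92 against 0.002 over all genes. Fcgr1 was 7.54-fold higher, with a log2 fold change of 2.92 (SE 0.325, edgeR adjusted p = 0.000219). Fcgr3 was 4.5-fold higher, with a log2 fold change of 2.17 (SE 0.263, edgeR adjusted p = 0.000364). Fcer1g was 4.27-fold higher, with a log2 fold change of 2.09 (SE 0.317, edgeR adjusted p = 0.00136). Fcgr4 was 8.77-fold higher, with a log2 fold change of 3.13 (edgeR adjusted p = 0.00194), and without DNase 3 its log2 fold change was 2.46.

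Pigr was 16.7-fold higher in DNase than in Ctr, with a log2 fold change of 4.06 (SE 0.33, edgeR adjusted p = 3.81e-05). Fcrl1 was 9.26-fold higher, with a log2 fold change of 3.21 (SE 0.684, edgeR adjusted p = 0.00896). Fcrl5 had 632 counts in DNase against 1 in Ctr, a scaled ratio of 454 with a counting interval of 81.2 to 18000 (edgeR adjusted p = 0.00344). Of these counts 452 came from DNase 3, while the other DNase kidneys had 81, 47 and 52. The ratio pools the mice of a group, so its size rests largely on DNase 3. Fcgr2b did not pass, and its log2 fold change of -0.17 was the negative exception among the 9 (edgeR adjusted p = 0.428). Fcgrt was next to the threshold with a log2 fold change of 0.32 (edgeR adjusted p = 0.0531, DESeq2 adjusted p = 0.0363). B2m rose with a log2 fold change of 2.36 (edgeR adjusted p = 1.48e-06) and Jchain with 5.45 (edgeR adjusted p = 0.000182).

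Signals from activating Fc receptors run through Src-family kinases, the kinase Syk, adaptors, phospholipase C and PI3 kinase, and inhibitory receptors recruit the phosphatases SHIP1 (Inpp5d) and SHP-1 (Ptpn6). Of 35 listed genes of this pathway, all tested, 30 had a positive log2 fold change and 5 a negative one between Lpr and Ctr. Of these, 22 passed as higher and 1 passed as lower, where 7.27% of all genes tested passed as higher and 10.2% in either direction. The median log2 fold change of the 35 was 1.62 against 0.027 over all genes. The adaptor Lcp2 and the kinase Fgr were among the genes with the smallest p, with log2 fold changes of 3.30 and 3.29 (edgeR adjusted p = 0.000293 and 0.000548). Tyrobp, an adaptor chain like the γ chain, rose from 9.51 ± 1.57 CPM (SD, n = 3) to 65.3 ± 23.2 CPM (SD, n = 4), with a log2 fold change of 2.79 (edgeR adjusted p = 0.0013). Lyn, which phosphorylates activating and inhibitory receptors, rose by 0.99 (edgeR adjusted p = 0.00602) and Syk by 1.99 on the log2 scale (edgeR adjusted p = 0.0412). The phosphatase genes rose too, Inpp5d by 1.62 (edgeR adjusted p = 0.015) and Ptpn6 by 0.81 (edgeR adjusted p = 0.0173). Vav3, a signalling protein of the Vav family, was the gene that passed as lower, with a log2 fold change of -0.75 (edgeR adjusted p = 0.0149). The count of 23 was 14 without Ctr 2 and 27 without Lpr 3.

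Between DNase and Lpr, 0 of the 35 pathway genes passed in edgeR or DESeq2, 0 had an unadjusted p under 0.05, and the median log2 fold change was -0.05. The smallest p belonged to Arpc1b, an actin-assembly subunit, Lat, an adaptor, and Tyrobp, with log2 fold changes of -0.38, -0.47 and -0.44 (edgeR adjusted p = 0.854 for each). Against Ctr, 25 passed as higher and 1, again Vav3, as lower, where 13.1% of all genes tested passed as higher. The median of the list was 1.42. Pik3ap1 and Pik3r5, which act in PI3 kinase signalling, and Dock2, a Rac activator of leukocytes, had the smallest p, with log2 fold changes of 3.07, 3.72 and 3.02 (edgeR adjusted p = 6.29e-06, 2.85e-05 and 5.1e-05).

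**Figure D4:**
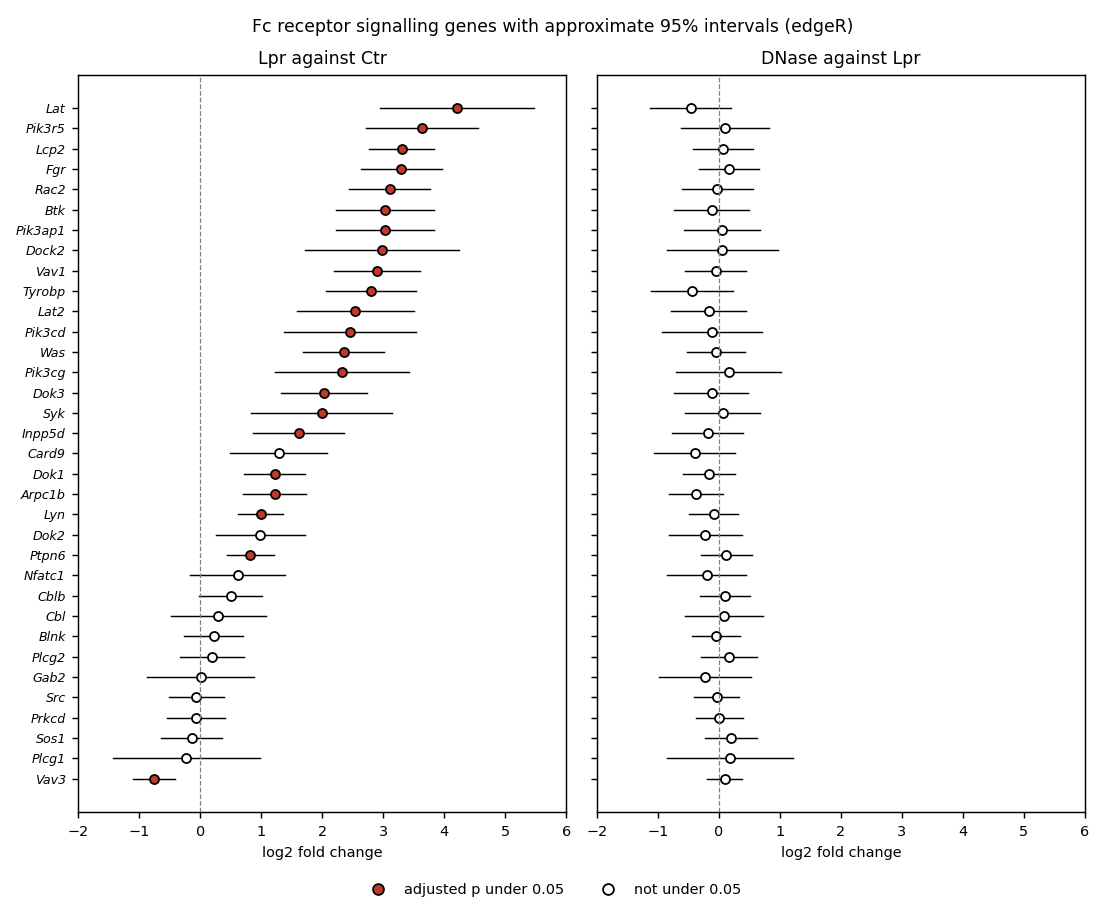
Log2 fold change with approximate 95% intervals of 34 genes of Fc receptor signalling, ordered by their value between Lpr and Ctr, with filled points for an adjusted p under 0.05 from edgeR. Between Lpr and Ctr 22 of the plotted genes passed, and between DNase and Lpr 0 passed, with values between -0.47 and 0.20.

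Among 12 other Fc receptors and partners, 10 were tested between Lpr and Ctr. Of all genes tested 7.27% passed as higher there, and of the 10, 3 passed, all higher. Beside B2m these were Cd300lf, an inhibitory receptor of myeloid cells, with a log2 fold change of 5.68 (edgeR adjusted p = 0.0015), and Trim21, a receptor for antibody inside cells, with 1.03 (edgeR adjusted p = 0.0292). Fcmr, the IgM receptor of lymphocytes, had a log2 fold change of -1.50 (edgeR adjusted p = 0.118). Between DNase and Lpr none of the 10 passed, and Fcmr and Fcrla, a B cell relative of the Fc receptors, had log2 fold changes of 1.45 and 1.23 (edgeR adjusted p = 0.823 and 0.82). Both were highest in DNase 3 among the MRL/lpr kidneys, with 2.60 CPM for Fcmr and 2.19 CPM for Fcrla. Against Ctr, 5 of 9 tested passed in DNase, all higher, where 13.1% of all genes tested passed as higher. Among them was Fcamr, the receptor for IgA and IgM, with a log2 fold change of 1.48 (edgeR adjusted p = 0.00112).

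Fcgr2b was set beside 14 other inhibitory receptors of leukocytes. Between Lpr and Ctr 13 could be tested and 12 of them passed as higher, where 7.27% of all genes tested passed as higher. The median of the 13 log2 fold changes was 3.08. The smallest p belonged to Clec4a2, Pilra and Lilrb4a, with log2 fold changes of 3.43, 4.03 and 3.39 (edgeR adjusted p = 0.000521, 0.000548 and 0.000548). The value of Fcgr2b, 0.49, lay under that of all 13 tested, of which the lowest was 0.96 for Sirpa, and Siglecg was too low to test. In Ctr, Fcgr2b had the level of 41.8 ± 7.85 CPM (SD, n = 3). Of the 14 other receptors, Sirpa had a mean of 83.0 CPM in Ctr, and the rest had means of 3.405 CPM or less. The part of the Ctr level in the size of these fold changes was not tested. Between DNase and Lpr 0 of 14 passed. Against Ctr 14 of 14 passed as higher in DNase, where 13.1% of all genes tested passed as higher.

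Marker lists of the leukocytes that can carry these receptors were read in the same kidneys. Of all genes tested between Lpr and Ctr, 10.2% passed in either direction and 7.27% passed as higher. The summed level of 10 macrophage markers lay between 277 and 340 CPM in Ctr, 1210 and 2350 CPM in Lpr and 955 and 1770 CPM in DNase, and 8 of the 10 passed between Lpr and Ctr. For 6 monocyte markers, of which 5 passed, the sum lay between 18.3 and 21.7 CPM in Ctr. In Lpr its highest value of 214 CPM was in Lpr 3, and the other Lpr kidneys lay between 99.2 and 138 CPM. For 11 neutrophil markers it lay between 2.88 and 7.15 CPM in Ctr and 16.6 and 46.8 CPM in Lpr and 15.2 and 27.9 CPM in DNase, with 3 of 7 tested past the test and the defining marker Ly6g at 0 counts in all Ctr kidneys and at 3 counts or fewer in the others. For 6 detected NK cell markers it lay between 0.797 and 2 CPM in Ctr, 7.86 and 27.8 CPM in Lpr and 9.2 and 11.1 CPM in DNase. Of the 4 tested between Lpr and Ctr, 3 passed, and these were Eomes, Gzma and Prf1, which cytotoxic T cells also express. Klrb1c, which encodes NK1.1, had a mean of 0.272 CPM in Ctr and 0.248 CPM in Lpr, with a log2 fold change of -0.13 (edgeR adjusted p = 0.949), and Ncr1 and Klre1 were too low to test. The sum of 7 plasma cell markers, Jchain among them, lay between 32.9 and 53.2 CPM in Ctr, 180 and 765 CPM in Lpr and 317 and 1060 CPM in DNase. That of 10 B cell markers lay between 2.58 and 9.87 CPM in Ctr, 20.3 and 35.4 CPM in Lpr and 23.3 and 53.7 CPM in DNase. Mast cell and basophil markers overlapped between the groups, with 0 of 5 tested past the test between Lpr and Ctr. The part of these cells in the levels of the Fc receptor genes was not tested.

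**Figure D5:**
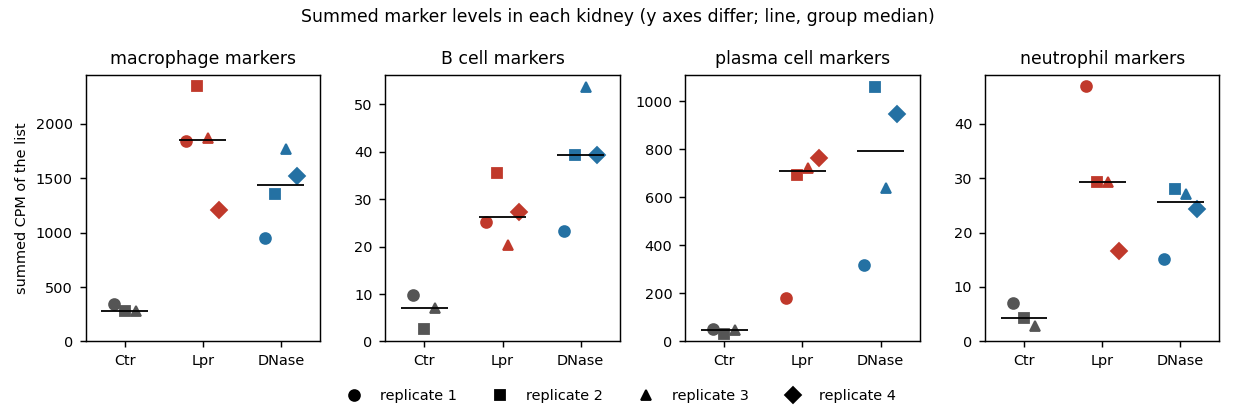
Summed CPM of the marker lists of macrophages, B cells, plasma cells and neutrophils in each kidney, with the group median as a line. For each list all Lpr and DNase kidneys lie above all Ctr kidneys, and DNase 3 has the highest B cell sum at 53.7 CPM.

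The kidney's own cells were present in every library. Proximal tubule markers summed to between 6610 and 14600 CPM, with the lowest value in Lpr 3, where Pigr was also lowest among the MRL/lpr kidneys. In the other MRL/lpr kidneys they summed to 8710 CPM or more. Markers of the loop, distal tubule and collecting duct summed to 6240 CPM in Lpr 3, with lower sums of 5050 CPM in Lpr 2 and 5820 CPM in DNase 4. In DNase 3, next lowest for Pigr, the proximal sum was 8710 CPM and that of the later segments 7770 CPM. The part of tubule cells in the level of Pigr was not tested. Podocyte markers lay between 748 and 834 CPM in Ctr and 702 and 780 CPM in DNase. In Lpr they lay at 363 CPM in Lpr 3 and between 624 and 712 CPM in the other kidneys. Counts in Lpr 3 fell with gene length, at a slope of -0.414 on log2 gene length. The part of this trend in the low proximal tubule and podocyte sums of Lpr 3 was not tested. Endothelial markers lay between 539 and 841 CPM over all groups. Of the 5 podocyte, 8 endothelial, 7 proximal tubule and 8 later-segment markers, 0 passed between Lpr and Ctr or between DNase and Lpr. At an unadjusted p under 0.05 in edgeR between Lpr and Ctr were 1 proximal tubule, 1 endothelial, 1 podocyte and 2 later-segment markers. The last 2 were Slc12a3 and Slc4a1, with log2 fold changes of -0.97 and -1.20 (edgeR adjusted p = 0.0523 and 0.0528, DESeq2 adjusted p = 0.00939 and 0.00801). Between DNase and Ctr 1 proximal tubule, 2 later-segment, 1 endothelial and 2 podocyte markers passed, where 21.7% of all genes tested did.

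Within the 8 MRL/lpr kidneys, the genes whose log2 CPM was most like that of a receptor were found among 11221 genes. The 8 points mix treated and untreated mice and share the libraries between genes, and the correlations are given as a description. Each was also taken without the 2 kidneys farthest from the median of the receptor. Fcgr1 was most like Nrros, Rtkn, Lair1, Ms4a6c and Irf5, with Pearson correlations of 0.96 to 0.98, and of 0.9 to 0.96 without Lpr 1 and 2. Fcer1g was most like Cd300c2, Fxyd5, Aif1, Tyrobp and Bcl2a1b, at 0.96 to 0.99, and at 0.92 to 0.99 without Lpr 2 and 3, and Tyrobp belongs to the pathway list. Fcgr2b was most like Fga, Lgals9, Ctsa, Cd74 and Ctsb, at 0.97 to 0.98, and at 0.82 to 0.96 without Lpr 1 and 2. Fcgr4 was most like Lrrc25, Arhgdia, Rcc2, Grb2 and Cd72, at 0.89 to 0.93. Without DNase 3 and Lpr 2 these values were 0.63, 0.84, 0.86, 0.48 and 0.15, so that those of Lrrc25, Grb2 and Cd72 rest largely on these kidneys. Pigr was most like Ankrd33b, Psme4, Pklr, Pls1 and Trip12, at 0.98 to 0.99, and at 0.72 to 0.92 without Lpr 3 and DNase 3, which had the lowest Pigr. Fcgrt was most like Slc19a1, Rmdn3, Rab11b, Ergic3 and Mgl2, at 0.94 to 0.97, and at 0.51 to 0.79 without Lpr 1 and 3. Between the receptors themselves the correlation over all 8 kidneys was 0.95 for Fcgr1 with Fcgr3 and 0.86 for Fcgr2b with Fcgr3. It was 0.28 for Fcgr2b with Fcgr4 and 0.77 for Fcrl1 with Fcrl5. These values between receptors were not taken with kidneys left out. DNase 3 had the highest Fcgr4, Fcrl1 and Fcrl5 of the 8, so how far the last 2 values rest on it was not tested.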

How the data were processed

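RNA was measured in kidneys of 3 Ctr, 4 Lpr and 4 DNase mice, grouped by the labels, with 1 library per mouse. The authors deposited counts, the whole number of reads on each gene without normalization, from paired-end sequencing, and the submitters' processing notes name fastp, HTSeq and mm10. The annotation and the use of strand are not given in the sources used here. The authors also deposited FPKM values, which are these counts divided by library total and gene length. All columns were used, so that 0 were left out.

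Counts were compared in pairs of groups with edgeR 4.0.16 (filterByExpr, TMM, quasi-likelihood test) in R 4.3.3, with the 2 groups alone in each fit and Benjamini-Hochberg adjustment over all genes tested. DESeq2 1.42.0, the tool of the study's methods, served as an alternative, as did limma 3.58.1 on log2(FPKM + 1) and log2(FPKM + 0.1). Log2 CPM used a prior count of 2. Figures used python 3.11.15 and matplotlib 3.10.9. The 10 genes, the lists and the tests were chosen with earlier results of these data known. All 10 were named. From each list the 3 genes with the smallest p in a comparison and the direct partners of the receptors were named, Vav3 and Fcamr were added after their values were seen, and likeness was taken over genes with a mean of at least 5 CPM. Settings that remove the length trend of Lpr 3 or leave out both replicate 3 kidneys were chosen after seeing the data. Alternatives are given in the closing section. Replicates of a group differed by more than counting noise, at 17.5 to 85.7 times the chi-square that counting noise gives, and at 385 to 393 times in the 3 pairs with Lpr 3. With 1 library per mouse, animal and library preparation cannot be told apart. Intervals of single counts cover counting error only.

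The fits were tested on simulated data, where of 100 genes with a log2 fold change of 3, 95 were recovered between Lpr and Ctr, 92 between DNase and Lpr and 99 between DNase and Ctr. Of 100 genes with a log2 fold change of 1, 19, 34 and 72 were recovered, and 6, 8 and 10 false calls were made. The simulated counts were drawn independently for each gene and held neither the length trend of Lpr 3 nor an outlying kidney. These rates are those of the simulated setting, and recovery in the real comparisons can differ. Shared 100-base stretches were counted in GENCODE transcripts. Promoters came from RefSeq on GRCm38.p6. Protein sequences were not used here, and values of 1 gene of the signalling list are not reported here.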

Additional observations from a re-analysis of the deposited data

Results flagged for a closer look

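Over 26 groups of 4 kidneys checked, 3 held 1 kidney that stood far from the other 3, and chance alone gives about 1 in 20. All 3 were DNase 3. Fcgr4 had 52.7 CPM in this kidney and between 14.5 and 16.8 CPM in the other DNase kidneys. Fcrl5 had 11.4 CPM there and between 1.27 and 2.26 CPM in the others. The FPKM ratio of Fcgr4 to Fcgr2b, which shares its counts with the first of these values, was 1.99 there and between 0.477 and 0.628 in the others.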

How the results depend on the processing

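Over the alternatives, 5 to 7 Fc receptor genes passed between Lpr and Ctr, 0 between DNase and Lpr and 6 to 8 between DNase and Ctr. The count over all genes between Lpr and Ctr was 1639, and it was 2515 with DESeq2, 2555 with all 3 groups in 1 fit, 929 with the fold threshold added, and between 852 (without Ctr 1) and 2824 (without Lpr 3) with each kidney left out. Between DNase and Ctr it was 3493, and it was 1889 with all 3 groups in 1 fit, 1862 with the replicate number as a block and 967 with the fold threshold. Between DNase and Lpr DESeq2 called 19 genes against 0. The 23 pathway genes between Lpr and Ctr were between 14 and 27 with each kidney left out, and the 26 between DNase and Ctr were 16 with the fold threshold. Without Lpr 2, DNase 1, DNase 2 or DNase 4, the log2 fold change of Fcgr4 between DNase and Lpr turned to 0.23, 0.11, 0.15 and 0.13, and over all kidneys left out it lay between -0.70 and 0.23. That of Pigr turned to -0.10 without Lpr 3 and reached 0.46 without Lpr 4. Fcrl5 lost its call in 3 settings, and Fcgrt gained one in 6 settings between DNase and Ctr and in 1 between Lpr and Ctr. Fcrl5 between Lpr and Ctr could be fitted in 11 of 17 alternatives, and it fell below the filter in 3 of the 7 fits with a kidney left out. Replicate numbers did not pair the mice, with correlations of deviations between -0.28 and 0.18, and with the block 5, 0 and 7 Fc receptor genes passed between Lpr and Ctr, DNase and Lpr, and DNase and Ctr. Causes of these shifts were not tested. Depth limits Fcrl1, Fcrl5 and Fcer2a, which have few counts.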
